A study of Mus musculus with 8 samples.

Results

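The 9 genes described here encode the Dbf4-dependent kinase (Dbf4 and Cdc7), the 6 subunits of the MCM replicative helicase (Mcm2, Mcm3, Mcm4, Mcm5, Mcm6 and Mcm7) and Mcm10, a factor that works with the helicase once it is active. They were picked by symbol from 24421 rows of a table of read counts per gene, and all 9 were among the 11797 genes with enough reads to be tested. The choice was made with the counts of these same libraries in view, so the members' levels and differences are given as a description and without p-values. Calls from the fit over all genes are counted for them only beside the share of all genes called. The libraries came from KPCY cells, a male mouse line of pancreatic cancer cells. Both lines carried a stable lentiviral insert, which encoded an inhibitor of miR-27a-3p in 4 libraries (the knockdown line) and a scrambled sequence in the other 4 (the scrambled line). Both lines had been selected with 2 µg/mL puromycin for 7 days and kept in medium with 4.5 g/L glucose and 10% serum, and RNA was collected 24 hours after seeding. Replicates are labelled as biological, yet only 1 stable line per group is described. Any p-value given for other genes is thus set against the spread among samples of 1 line each, and the inhibitor cannot be told apart from other differences between the lines.

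Before a cell copies its DNA, the ring of Mcm2 to Mcm7 is loaded in an inactive form onto replication origins by the origin recognition complex with Cdc6 and Cdt1. The kinase, in which Dbf4 is the regulatory subunit and Cdc7 the catalytic one, then phosphorylates Mcm subunits, and Cdc45 and the GINS complex join to form the active helicase. The supply of Dbf4 protein limits the kinase to late G1 and S phase, which is how the kinase gets its name. Many of these genes are transcribed under E2F factors in dividing cells.

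The libraries held 19165513 to 23542275 counts and replicates lay close together (edgeR's biological coefficient of variation had a median of 0.0372). Scrambled replicate 2 stood apart, with a chi-square of 5.19 to 5.36 per gene against each of the other scrambled libraries, whose own pairs gave 1.80 to 2.35. Taken as a sum, the markers of pancreatic ductal epithelium were far above those of other cell types. All 8 listed markers were tested and their summed level was 10830 to 11796 CPM (each gene's counts over its library's total, scaled by edgeR's TMM factors) in scrambled and 11525 to 11854 CPM in knockdown libraries. Krt8 was the largest, with a mean of 3221 CPM, and the sum does not show each marker's level. Of the 8, 4 were higher and 2 lower in the knockdown line (edgeR adjusted p under 0.05). Of all tested genes, 23.8% were higher and 24.1% lower. The fibroblast markers summed to at most 1.41 CPM, with Col1a2, Dcn, Lum and Pdgfrb at 0 in all libraries, and the leukocyte, endothelial and acinar or endocrine lists to at most 4.40, 1.03 and 3.98 CPM. The poly(A)-selected libraries do not capture mature microRNAs. The only read of the Mir27a precursor came from knockdown replicate 2, a count of 1 against 0 elsewhere, so how far miR-27a was lowered was not measured. A gene at 0 counts may still have up to 3, or 0.127 to 0.157 CPM, for counting error only.

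Dbf4 was far lower in the knockdown line, the 6 helicase subunits and Mcm10 were lower by small amounts, and Cdc7 was not. In edgeR's quasi-likelihood fit over all genes (Benjamini-Hochberg adjusted p under 0.05), 8 of the 9 members were called lower and 0 higher, where 24.1% of all tested genes were called lower, 23.8% higher and 47.9% in either direction. As the members were chosen with this contrast known, nothing is read from that count or from a single member's call. The median log2 fold change, knockdown over scrambled, was −0.25 for the 6 helicase subunits and 0.0017 for all tested genes, whose median absolute log2 fold change was 0.133.

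**Figure D1:**
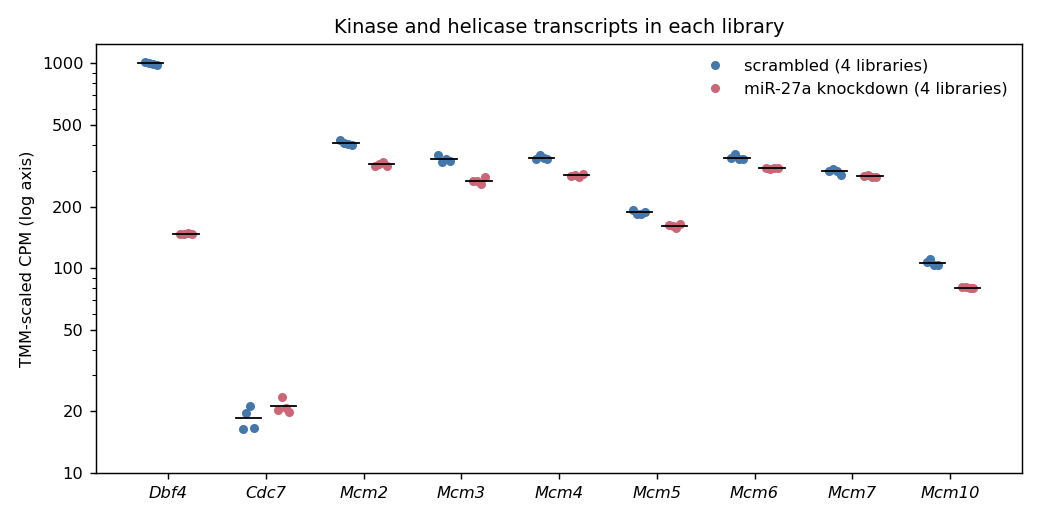
TMM-scaled CPM of the 9 genes in each library on a log axis, 4 scrambled (blue) and 4 knockdown (red) libraries per gene, with a black line at each group's mean. Dbf4 stands at about 1001 CPM in the scrambled and 148 CPM in the knockdown libraries, the MCM genes differ by far less, and the Cdc7 libraries of the groups overlap.

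Dbf4 lies on chromosome 5 (GRCm38 8396973 to 8422716, minus strand). Its level in scrambled replicates 1 to 4 was 1013, 1005, 999 and 987 CPM, and in knockdown replicates 1 to 4 it was 147.5, 147.5, 148 and 147 CPM. Every knockdown library was far below every scrambled one, and the libraries of each group were nearly the same. The means were 148 ± 0.730 in the knockdown and 1001 ± 10.8 CPM in the scrambled line (SD, n = 4), which is 6.78-fold lower or a drop of 85.3% (log2 fold change −2.76, SE 0.0225). By absolute log2 fold change Dbf4 ranked 27 among the 11797 tested genes. The depth behind it was 19946 to 23306 counts per scrambled and 2848 to 3218 counts per knockdown library. Counting alone would give an SD of 2.71 CPM in the knockdown group, more than the 0.730 CPM seen, so that closeness is not read further.

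The start of Dbf4 lies 134 bases from that of Slc25a40, a mitochondrial carrier gene read in the other direction. The 133 bases between the annotated starts are shown because the starts lie this close. Both genes were lower by a like amount, but so were genes farther away, as given below, and a shared cause was not tested. The stretch is chr5:8422717-8422849 (GRCm38.p6, from RefSeq, minus strand, 81.2% G or C), written 5′ to 3′ toward Dbf4 and wholly in lower case because it held no match to the promoter motifs searched below.
Dbf4 upstream: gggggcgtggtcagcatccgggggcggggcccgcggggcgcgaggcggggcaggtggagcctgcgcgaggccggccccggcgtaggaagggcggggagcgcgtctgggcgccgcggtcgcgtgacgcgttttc

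Cdc7, the catalytic partner, lies on the same chromosome at 106964322 to 106984432, far from Dbf4. Its level was 16.3, 19.6, 21.3 and 16.7 CPM in scrambled and 20.4, 23.5, 20.7 and 19.9 CPM in knockdown replicates 1 to 4. The groups overlap: scrambled replicate 3 lies above knockdown replicates 1, 3 and 4. The means were 21.1 ± 1.62 in the knockdown and 18.5 ± 2.41 CPM in the scrambled line (SD, n = 4, log2 fold change 0.19, SE 0.0796). Cdc7 was the shallowest member, with 336 to 497 counts per library. Counting alone would give an SD of 0.935 CPM in the scrambled and 1.03 CPM in the knockdown group, below the 2.41 and 1.62 CPM seen. With 4 libraries per group, whether they differed beyond counting was not tested. Leaving out each library in turn gave log2 fold changes from 0.13 (without scrambled replicate 1) to 0.27 (without scrambled replicate 3). Cdc7 was not called in the main fit, and its call depended on single libraries and on the processing. It was called higher without scrambled replicate 2 or 3 and not without any one of the other 6. With all libraries kept, it was called higher under upper-quartile scaling, no low-count filter or the replicate block.

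Mcm2 and Mcm3 were the helicase subunits with the largest differences. Mcm2, whose N-terminal tail the kinase phosphorylates and which also carries histones, measured 422, 409, 404 and 402 CPM in scrambled and 316, 323, 329 and 317 CPM in knockdown replicates 1 to 4. Mcm3, which pairs with Mcm5 in the ring, measured 359, 330, 342 and 335 CPM in scrambled and 268, 268, 256 and 278 CPM in knockdown replicates 1 to 4. For both genes the groups were well apart. In these bulk samples, fewer cells in S phase and less RNA per cell cannot be told apart, and neither was tested. Mcm2 was 21.5% lower (321 ± 6.18 against 409 ± 8.94 CPM, log2 fold change −0.35, SE 0.0239) and Mcm3 21.7% lower (268 ± 8.70 against 342 ± 12.5 CPM, log2 fold change −0.35, SE 0.0286).

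Mcm4 and Mcm6 form, with Mcm7, the part of the ring that unwinds DNA on its own in vitro, and Mcm4 is a main substrate of the kinase. Mcm4 measured 341, 357, 345 and 341 CPM in scrambled and 283, 284, 279.8 and 289 CPM in knockdown replicates 1 to 4. Mcm6 measured 344, 363, 341 and 340.1 CPM in scrambled and 310.2, 305, 307 and 307 CPM in knockdown replicates 1 to 4. Neither gene's groups overlap, and the knockdown libraries of Mcm6 lay within a few CPM of each other. Their SD of 2.08 CPM was below the 3.91 CPM that counting alone would give, so that closeness is not read further. Mcm4 was 17.9% lower (log2 fold change −0.28, SE 0.0238) and Mcm6 11.4% lower (log2 fold change −0.17, SE 0.0247). Scrambled replicate 2 was the highest scrambled library for both genes, and without it the log2 fold changes were −0.27 and −0.15.

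Mcm5, which with Mcm2 forms the gate through which DNA enters the ring, had the lowest level of the 6 subunits. It measured 192, 185, 185 and 189 CPM in scrambled and 162, 159.9, 157 and 164 CPM in knockdown replicates 1 to 4. The groups do not overlap, and Mcm5 was 14.4% lower (161 ± 3.08 against 188 ± 3.62 CPM, log2 fold change −0.22, SE 0.0266).

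Mcm7 had the smallest difference of the 8 genes called lower. It measured 297, 304, 299 and 287 CPM in scrambled and 281, 286.7, 278 and 278 CPM in knockdown replicates 1 to 4. Knockdown replicate 2 was above scrambled replicate 4 by 0.173 CPM, so the groups touch, and the means differed by 5.33% (log2 fold change −0.08, SE 0.0247). At an adjusted p under 0.01 it was the 1 of these 8 genes no longer called. Mcm7 shares 64 exon bases with Cops6 and 321 with Ap4m1, both on the opposite strand. The strand setting of the counting is not given in the sources used here, so reads of these genes cannot be fully told apart. Cops6, a COP9 signalosome subunit, stood at 121 ± 3.30 against 108 ± 3.60 CPM and Ap4m1, an adaptor subunit, at 13.5 ± 1.92 against 10.8 ± 0.419 CPM, both higher in the knockdown line. The microRNA rows inside Mcm7 had 0 to 4 counts (Mir25), 0 to 2 (Mir93) and 0 (Mir106b) per library.

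Mcm10 is no ring subunit. It binds the assembled helicase and is needed for origins to open. It measured 107, 110.4, 103 and 104 CPM in scrambled and 80.7, 81.0, 80.4 and 79.6 CPM in knockdown replicates 1 to 4. The groups are wide apart relative to their spread, although counting alone would give the knockdown group an SD of 2.00 CPM, above the 0.593 CPM seen. Its drop of 24.3% (80.4 ± 0.593 against 106 ± 3.28 CPM, log2 fold change −0.40, SE 0.0321) was the largest among the MCM genes. Over all 9 members, 7 were lower with groups that do not overlap, the exceptions being Cdc7 and Mcm7, while 21.1% of all tested genes were lower without overlap. As with the calls, nothing is read from this count.

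Against both Cdc7 and the helicase, Dbf4 was several-fold lower in the knockdown line. There were 62.1, 51.1, 46.9 and 59.3 Dbf4 reads per Cdc7 read in scrambled and 7.24, 6.27, 7.16 and 7.36 in knockdown replicates 1 to 4. Every knockdown library lay below every scrambled one, with means of 7.01 ± 0.498 against 54.9 ± 7.05 (SD, n = 4) and a log2 difference of −2.96. Relative to the summed CPM of Mcm2 to Mcm7, to which it does not belong, Dbf4 stood at 51.8%, 51.6%, 52.1% and 52.1% in scrambled and 9.11%, 9.07%, 9.24% and 8.99% in knockdown replicates 1 to 4. That percentage had an SD of 0.282% in the scrambled and 0.106% in the knockdown line (log2 difference −2.51). On the log2 scale the SDs were 0.00784 and 0.0168, against 0.188 and 0.106 for the ratio to Cdc7, a gene with far fewer counts. Cdc7 stood at 0.959% ± 0.126 relative to the helicase sum in the scrambled and 1.30% ± 0.0988 in the knockdown line, a log2 difference of 0.45 that combines a lower sum with the unclear difference in Cdc7. These ratios of reads depend on transcript length and compare groups only, not the number of molecules of each gene.

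**Figure D2:**
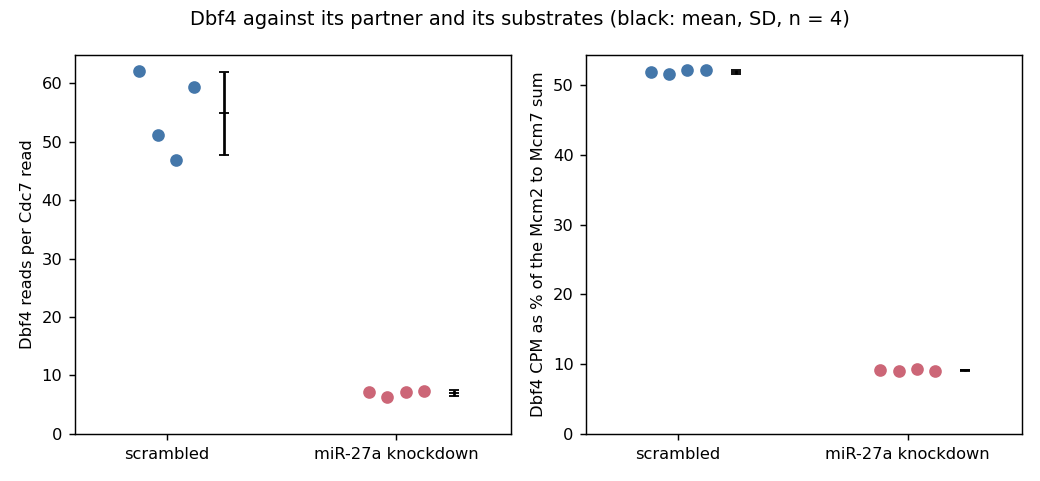
Dbf4 reads per Cdc7 read (left) and Dbf4 CPM as a percentage of the summed Mcm2 to Mcm7 CPM (right) in each of the 8 libraries, with the mean and SD of 4 libraries in black. The ratio on the left lies at 46.9 to 62.1 in scrambled and 6.27 to 7.36 in knockdown libraries, and the percentage on the right at 51.6% to 52.1% and 8.99% to 9.24%, with no overlap.

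Within the helicase the subunits did not change in equal measure. The 6 subunits summed to 1622 ± 10.97 CPM in the knockdown line, against 1928 ± 29.0 CPM in the scrambled line. Of that sum Mcm2 took 19.8% in the knockdown and 21.2% in the scrambled line, Mcm3 16.5% and 17.7%, and Mcm4 17.5% and 17.9%. Mcm7 went the other way, from 15.1% to 15.6% in the scrambled libraries to 17.0% to 17.6% in the knockdown libraries, without overlap. Mcm6 also had a larger share in the knockdown line (18.95% against 17.996%), while the share of Mcm5 was 9.91% ± 0.138 against 9.73% ± 0.217. The log2 ratio of Mcm7 to Mcm2 went from −0.463 ± 0.0392 in the scrambled to −0.193 ± 0.0342 in the knockdown line. Mcm10, which is outside the ring, stood at 4.96% ± 0.0572 in the knockdown and 5.51% ± 0.115 in the scrambled line relative to the sum.

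Levels of different genes were compared per kilobase of transcript. Over all annotated exon bases Dbf4 had the highest level of the 9 genes in the scrambled line, 115 ± 1.24 CPM per kilobase, ahead of Mcm4 (96.4) and Mcm3 (91.0). In the knockdown line it stood at 16.9 ± 0.0836 CPM per kilobase, rank 7 of 9, with Mcm4 first at 79.1 CPM per kilobase. The order below Mcm3 was Mcm6, Mcm7, Mcm2, Mcm5, Mcm10 and Cdc7 in the scrambled line. Cdc7 was last in both lines, at 4.42 ± 0.575 CPM per kilobase in the scrambled and 5.05 ± 0.387 in the knockdown line. The annotated Dbf4 exons add up to 8728 bases because some transcript models retain introns, and its longest coding transcript has 2402. With the longest coding transcript of each gene, a length chosen after these values were seen, Dbf4 stood at 417 ± 4.51 CPM per kilobase in the scrambled line, again the highest, and at 61.4 ± 0.304 in the knockdown line, rank 6 of 9. By the coding transcript Mcm2 ranked 2 in the scrambled and 1 in the knockdown line, and Mcm4 ranked 5 and 4. The order of the MCM genes thus depends on the length used. Per kilobase Dbf4 exceeded Cdc7 26.0-fold in the scrambled and 3.35-fold in the knockdown line by exon bases, and 70.6-fold and 9.09-fold by the coding transcript. Among 11693 genes ranked by CPM per kilobase of exon, Dbf4 went from rank 327 in the scrambled line to rank 3236 in the knockdown line. The other members moved by fewer places, the most being Mcm10 from 3896 to 4735, followed by Cdc7 (7420 to 7065) and Mcm2 (831 to 1053), and the least Mcm7 (690 to 721).

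**Figure D3:**
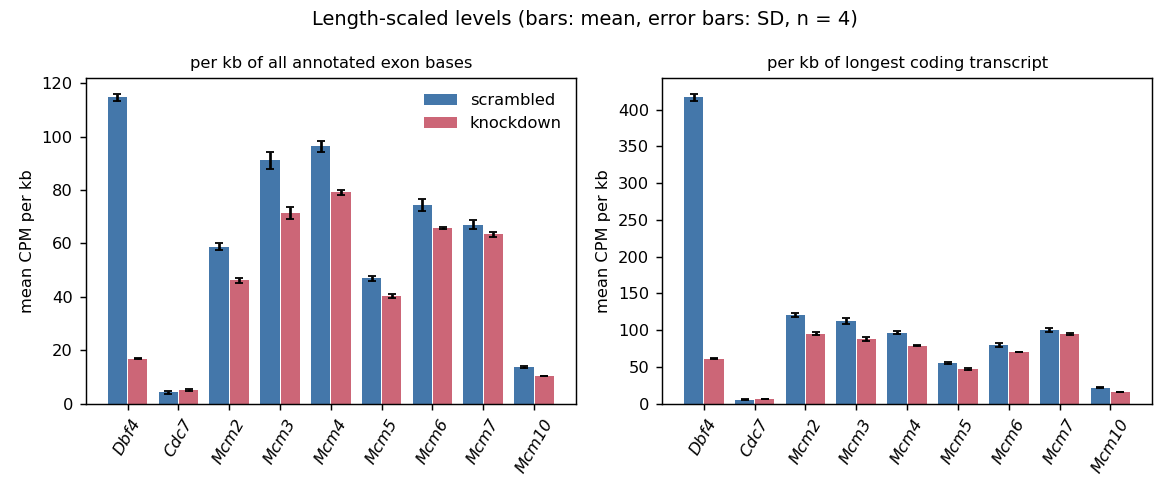
Mean CPM per kilobase of the 9 genes in scrambled (blue) and knockdown (red) libraries, by all annotated exon bases (left) and by the longest coding transcript (right), with error bars for the SD of 4 libraries and axes from 0. Dbf4 is the tallest scrambled bar in both panels, 115 and 417 CPM per kilobase, and its knockdown bars are 16.9 and 61.4.

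The genes around Dbf4 were lower by similar amounts. Of the 5 tested genes on each side of it, 8 had a mean of at least 5 CPM. All 8 were lower (edgeR adjusted p at most 7.39e-18), with log2 fold changes from −2.92 to −2.48 and a median of −2.69, beside −2.76 for Dbf4. The other 2, Steap4 and Abcb4, had 1 to 5 and 2 to 9 counts per knockdown library against 19 to 30 and 39 to 56 per scrambled library, so they passed the count filter through the scrambled line and add no support, and their fold changes are imprecise. Slc25a40, which starts beside Dbf4, stood at 11.2 ± 1.25 against 72.4 ± 1.82 CPM (log2 fold change −2.69), and Sri, a calcium-binding protein on the other side, at 164 ± 3.62 against 947 ± 14.2 CPM (−2.53). Beyond Sri lie the metalloreductase genes Steap4 (0.121 against 1.12 CPM), Steap1 (−2.75) and Steap2 (−2.51), and the cilium gene Cfap69 (−2.84). On the side of Slc25a40 lie Rundc3b (−2.48), the drug exporters Abcb1a (−2.69) and Abcb1b (−2.92), close copies between which reads can be split, and the phospholipid transporter Abcb4 (0.297 against 2.15 CPM). The log2 fold change of Dbf4 lay within the range of these 8 neighbours.

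Around the other 8 members no such block of lower genes was seen. The medians of their 10 nearest tested genes ran from −0.15 (Mcm2) to 0.30 (Mcm7), and single neighbours from −0.87 (Gsta3, near Mcm3) to 1.16 (Ccdc3, near Mcm10), so some differed more than any MCM gene. The log2 fold change of Cdc7, which was not called, was 0.19 beside a median of 0.15 for its 10 neighbours. Of these neighbours 6 were called higher and 0 lower, where 23.8% of all tested genes were called higher. Zfp644 next to Cdc7 stood at 0.20 (edgeR adjusted p = 7.57e-04) and Btbd8 at 0.07. All 7 MCM genes had log2 fold changes below the median of their own neighbours, by 0.16 (Mcm4 and Mcm6) to 0.43 (Mcm3). As the MCM genes were chosen with this contrast in view, nothing is read from that. Mcm7 stood at −0.08 where 7 of its 10 neighbours were called higher and 0 lower, Cops6 at 0.16 (edgeR adjusted p = 2.49e-04) and Ap4m1 at 0.32 (edgeR adjusted p = 0.00482). Mcm5 stood at −0.22 beside a neighbour median of 0.14, with Hmox1, the heme oxygenase, at 0.18 (edgeR adjusted p = 0.0284) and Nr3c2, the mineralocorticoid receptor, at 0.09. Mcm3 stood at −0.35 between Pkhd1 (0.57, edgeR adjusted p = 1.52e-07) and Paqr8 (0.37, edgeR adjusted p = 5.48e-09).

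Some neighbours of MCM genes were lower too. The median around Mcm2 was −0.15, with 6 of 10 genes called lower, where 24.1% of all tested genes were. The adjacent Abtb1 and Tpra1 stood at 0.13 and 0.08 and neither was called. Mcm4 shares its start region with Prkdc, the catalytic subunit of DNA-dependent protein kinase, 466 bases away and read in the other direction. Prkdc stood at 66.4 ± 1.79 against 62.9 ± 5.62 CPM (log2 fold change 0.08, edgeR adjusted p = 0.205), and Ube2v2 on the other side at −0.18 (edgeR adjusted p = 0.0264). Mcm10 lies between Phyh (−0.27, edgeR adjusted p = 0.0131) and Optn (−0.24, edgeR adjusted p = 1.92e-04), while the median of its 10 neighbours was −0.08. Mcm6 lies between Ubxn4 (0.15, edgeR adjusted p = 0.00101) and Dars (−0.11, edgeR adjusted p = 0.00735), with a neighbour median of −0.01.

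**Figure D4:**
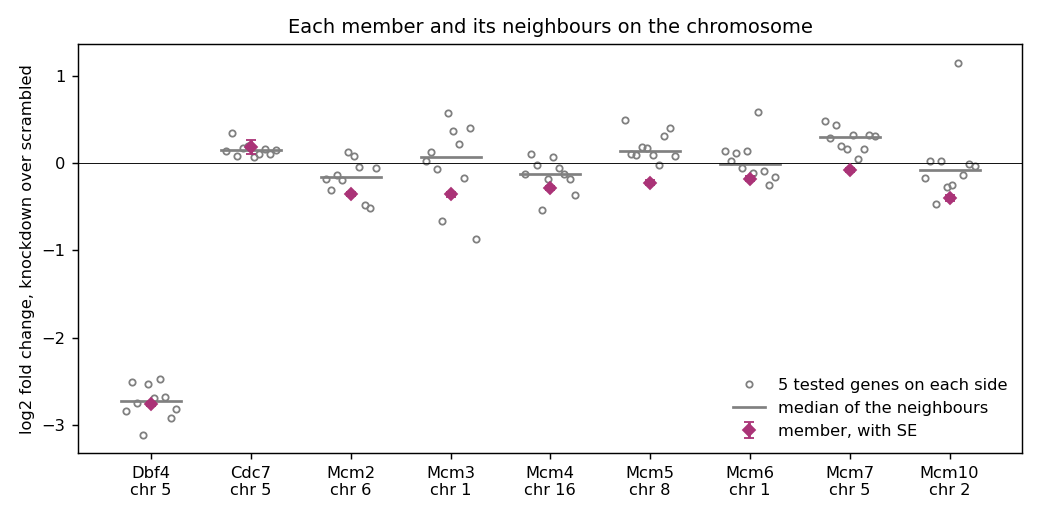
Log2 fold change (knockdown over scrambled) of each member (diamond, bars for its SE), of the 5 tested genes on each side of it (open circles) and their median (grey line). Dbf4 and its 8 neighbours with a mean of at least 5 CPM lie together between −2.92 and −2.48. Steap4 (−3.12) and Abcb4 (−2.82) have few counts in the knockdown line and add no support. The 7 MCM diamonds each lie below their grey line, a description only, as the members were chosen with this contrast in view.

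The promoter windows of the members, from 250 bases before to 50 after each RefSeq start (GRCm38.p6), were searched on both strands for the E2F-like motif TTTNNCGC. Windows were found for 8 of the 9 genes (10 windows), Mcm4 being the one without an entry. Matches lay in the windows of Mcm3, Mcm5, Mcm6 and Mcm7 and not in those of Dbf4, Cdc7, Mcm2 or Mcm10, while 8.37% of 11580 windows of tested genes held one. The pairs that read across each other on opposite strands count as 1 place. Mcm6 had matches beginning 110, 106 and 47 bases before its start (the first pair at 1 place) and Mcm5 153 and 149 bases before its start (1 place). Mcm3 had them 19 and 38 bases after its start, and Mcm7 165 bases before and 16 after. The 250 bases upstream of Mcm6 (chr1:128359706-128359955, minus strand) and of Mcm5 (chr8:75109259-75109508, plus strand) are shown as the upstream windows with overlapping matches, which are in capitals.
Mcm6 upstream: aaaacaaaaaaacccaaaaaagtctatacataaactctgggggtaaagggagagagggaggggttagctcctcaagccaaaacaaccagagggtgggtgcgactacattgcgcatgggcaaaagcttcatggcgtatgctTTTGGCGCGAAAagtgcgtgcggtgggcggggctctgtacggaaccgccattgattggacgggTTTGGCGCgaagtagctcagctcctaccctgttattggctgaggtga
Mcm5 upstream: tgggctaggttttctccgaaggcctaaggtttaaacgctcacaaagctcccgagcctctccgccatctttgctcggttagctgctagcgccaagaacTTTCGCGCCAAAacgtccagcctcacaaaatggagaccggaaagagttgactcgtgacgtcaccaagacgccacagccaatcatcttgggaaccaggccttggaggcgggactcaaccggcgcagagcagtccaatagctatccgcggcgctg

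A match is a string of letters and no measured binding, and a window without one says nothing about E2F there. By log2 fold change, the members with matches stood at −0.35 (Mcm3), −0.22 (Mcm5), −0.17 (Mcm6) and −0.08 (Mcm7). Those without one stood at −2.76 (Dbf4), 0.19 (Cdc7), −0.35 (Mcm2) and −0.40 (Mcm10). Whether a match goes with the difference was not tested. The motif CCAAT, looked for after the data were seen, lay in the windows of all 6 MCM genes that had one and in neither kinase gene, and in 38.01% of windows of tested genes.

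The inhibitor is directed at miR-27a-3p, and the seed matches of this microRNA in the members' longest annotated 3′ UTRs are given for that reason. Its mature sequence (chr8:84208727-84208747, plus strand, GRCm38.p6, from RefSeq) is printed with the seed, bases 2 to 8, in capitals.
mmu-miR-27a-3p: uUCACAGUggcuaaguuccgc

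Dbf4, Cdc7, Mcm2, Mcm3, Mcm5 and Mcm7 had no match to the seed as ACTGTGAA (8mer), ACTGTGA or CTGTGAA (7mers), in UTRs of 136 (Mcm7) to 1115 bases (Mcm5). Mcm6 had an 8mer at base 550 of 1888 and a 7mer at 1680, Mcm4 a 7mer at base 398 of 780, and Mcm10 7mers at bases 475 and 674 of 1679. Of 11040 tested genes with an annotated 3′ UTR, 6.40% held an 8mer and 29.6% any of the matches, in UTRs with a median of 1200 bases. The 8mer and the ACTGTGA sites are shown with flanking bases and the match in capitals, and the CTGTGAA sites of Mcm6 and Mcm10 are not printed.
Mcm6 8mer: cattgtgtctcACTGTGAAgcccacactgg
Mcm4 7mer: gtacatcctttACTGTGAtatgatgggct
Mcm10 7mer: tccttctgttgACTGTGAttgcagctttt

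By log2 fold change, the 3 genes with a match stood at −0.17 (Mcm6), −0.28 (Mcm4) and −0.40 (Mcm10). Those with none stood at −2.76 (Dbf4), 0.19 (Cdc7), −0.35 (Mcm2 and Mcm3), −0.22 (Mcm5) and −0.08 (Mcm7). Whether a seed match goes with the difference was not tested.

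The other genes of DNA replication were mostly lower as well, by amounts like those of the helicase. Of 89 listed genes in 7 groups, 87 were tested, and by edgeR's quasi-likelihood test (Benjamini-Hochberg adjusted p under 0.05) 52 were lower, 15 higher and 20 not called, with a median log2 fold change of −0.16 beside 0.0017 for all tested genes. Of all tested genes, 24.1% were called lower and 23.8% higher, shares against which the counts of each list below are to be set. None of the 87 genes reached the size of the Dbf4 difference, as their log2 fold changes ran from −0.57 to 0.48. The lists were drawn up with earlier results of these libraries known, so their direction is no independent evidence. Without scrambled replicate 2 the counts were 52 lower and 14 higher.

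Among the 10 genes that load the helicase onto origins, 5 fell, 1 rose and 4 were not called. Orc1, an origin recognition subunit, fell to 17.8 ± 1.09 from 26.4 ± 1.57 CPM (log2 fold change −0.57, edgeR adjusted p = 1.28e-07). The loading factors Cdc6 (54.5 ± 1.37 against 75.5 ± 4.68 CPM, edgeR adjusted p = 7.03e-09) and Cdt1 (64.8 ± 0.404 against 80.8 ± 1.37 CPM, edgeR adjusted p = 5.13e-08) fell, with log2 fold changes of −0.47 and −0.32. Orc5 rose to 28.7 ± 2.00 from 21.6 ± 1.32 CPM (log2 fold change 0.41, edgeR adjusted p = 9.76e-06). The subunits Orc2 (92.2 against 92.1 CPM) and Orc4 (55.5 against 55.4 CPM) were close to equal in the lines.

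Of the 10 genes that turn the loaded ring into an active helicase, 7 fell, 1 rose and 2 were not called, with a median of −0.25. Those that fell included Cdc45, part of the active helicase (log2 fold change −0.42, 42.1 ± 0.456 against 56.4 ± 1.15 CPM, edgeR adjusted p = 8.90e-09) and the GINS subunit gene Gins1 (−0.49, 26.9 ± 0.976 against 37.96 ± 1.32 CPM, edgeR adjusted p = 2.71e-08). Topbp1, a scaffold for the joining of Cdc45 and GINS, fell (log2 fold change −0.28, 264 ± 4.35 against 321 ± 9.66 CPM, edgeR adjusted p = 5.44e-09). The 4 GINS genes did not move as one, since Gins4 rose (46.9 ± 1.39 against 41.5 ± 1.95 CPM, edgeR adjusted p = 0.00215) and Gins2 and Gins3 were not called (33.8 against 35.6 and 10.8 against 10.6 CPM).

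The replisome list, which holds polymerases, clamp, clamp loader and fork factors, had 20 of 27 genes lower, 1 higher and 6 not called. Among the falls were Lig1, the ligase that joins Okazaki fragments (log2 fold change −0.37, 181 ± 5.17 against 234 ± 6.90 CPM, edgeR adjusted p = 3.20e-10), Pold1, the catalytic subunit of polymerase delta (−0.32, 115 ± 2.73 against 144 ± 0.900 CPM, edgeR adjusted p = 3.12e-09) and the fork protection gene Tipin (−0.37, 71.6 ± 2.02 against 92.7 ± 1.94 CPM, edgeR adjusted p = 6.52e-09). Pold4, the small subunit of polymerase delta, was the gene that rose (7.39 ± 0.405 against 5.32 ± 0.498 CPM, edgeR adjusted p = 6.18e-04). The clamp loader genes Rfc1 (149 against 149.7 CPM) and Rfc2 (63.0 against 62.2 CPM) were not called.

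Of 6 tested relatives and partners of MCM proteins, 4 fell and 1 rose. Mcmbp, a binding protein of the helicase subunits, fell (log2 fold change −0.20, 133 ± 3.86 against 153 ± 4.58 CPM, edgeR adjusted p = 7.91e-06). Tonsl and Mms22l, which act together at stalled forks, fell (log2 fold changes −0.49 and −0.40, 32.7 ± 1.05 against 45.8 ± 1.58 and 34.6 ± 0.841 against 45.7 ± 1.52 CPM, edgeR adjusted p = 1.02e-08 and 1.27e-07). Mcm9, an MCM homologue of recombination repair, stood at 10.8 ± 0.596 against 9.95 ± 0.695 CPM (edgeR adjusted p = 0.229). Mcm3ap, which binds Mcm3 and serves in mRNA export, rose (96.7 ± 3.54 against 89.4 ± 6.72 CPM, log2 fold change 0.11, edgeR adjusted p = 0.0381), a call that was lost without scrambled replicate 2 or any of knockdown replicates 1, 3 and 4.

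The phosphatase that removes the kinase's marks from the helicase was seen here only as transcripts, and its activity was not measured. The differences of its catalytic subunit genes were near 0.133, the median absolute log2 fold change of all tested genes, of which 23.8% were called higher. All 3 catalytic subunit genes of protein phosphatase 1 rose: Ppp1cb to 302 ± 3.11 from 271 ± 2.82 CPM (log2 fold change 0.16, edgeR adjusted p = 6.91e-06), Ppp1cc to 70.5 ± 1.66 from 63.5 ± 1.40 CPM (0.15, edgeR adjusted p = 0.00130) and Ppp1ca to 464 ± 2.69 from 435 ± 5.49 CPM (0.09, edgeR adjusted p = 0.00104). Rif1, which brings this phosphatase to origins, fell (log2 fold change −0.16, 144 ± 3.72 against 161 ± 6.96 CPM, edgeR adjusted p = 3.24e-04). Psip1, a chromatin protein that binds the kinase, fell (log2 fold change −0.21, 202 ± 4.87 against 233 ± 11.5 CPM, edgeR adjusted p = 1.04e-05). These differences are small beside the drop of 85.3% in Dbf4.

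Among 14 genes of the S-phase cyclin-dependent kinases and the replication checkpoint, 8 fell, 3 rose and 3 were not called. The falls included Ccna2, cyclin A2 (log2 fold change −0.23, 354 ± 4.10 against 416 ± 11.5 CPM, edgeR adjusted p = 4.43e-08), Chek1, the checkpoint kinase (−0.38, 38.3 ± 1.60 against 49.7 ± 1.10 CPM, edgeR adjusted p = 2.52e-07) and Dtl, which directs Cdt1 to destruction in S phase (−0.30, 75.0 ± 1.40 against 92.6 ± 2.40 CPM, edgeR adjusted p = 1.03e-07). Its ubiquitin ligase partners Ddb1 (1421 ± 4.49 against 1238 ± 14.98 CPM, edgeR adjusted p = 1.12e-08) and Cul4a (133 ± 1.71 against 112 ± 3.66 CPM, edgeR adjusted p = 4.35e-07) rose, as did Ccne1, cyclin E1 (34.3 ± 1.58 against 28.5 ± 2.57 CPM, edgeR adjusted p = 6.01e-04). Cdk1 (209.8 against 208 CPM) and Atr (53.4 against 55.2 CPM) were not called.

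The E2F, RB and Mybl2 list was split, with 6 lower, 5 higher and 4 not called of 15 and a median near 0 (−0.00012). The lower genes included the activator E2f1 (log2 fold change −0.40, 38.1 ± 2.55 against 50.3 ± 2.16 CPM, edgeR adjusted p = 6.14e-07), the repressor E2f8 (−0.36, 96.7 ± 4.63 against 124 ± 2.74 CPM, edgeR adjusted p = 1.25e-08) and Mybl2, which drives cell-cycle genes (−0.51, 58.3 ± 0.730 against 83.1 ± 3.25 CPM, edgeR adjusted p = 1.24e-10). Rbl2, the pocket protein p130 of resting cells, rose (37.1 ± 2.06 against 31.5 ± 1.45 CPM, edgeR adjusted p = 8.41e-04), as did the repressor genes E2f6 (log2 fold change 0.20, edgeR adjusted p = 5.10e-04) and E2f4 (0.11, edgeR adjusted p = 0.00373). Repressors therefore went both ways. Tfdp2 and E2f3 were not called (edgeR adjusted p = 0.0653 and 0.367).

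**Figure D5:**
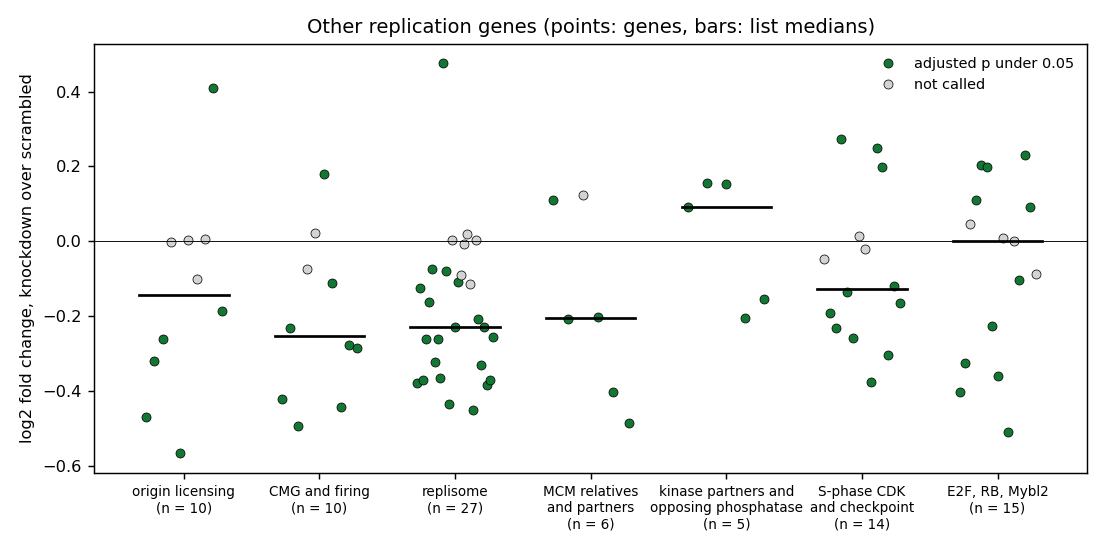
Log2 fold change (knockdown over scrambled) of 87 tested replication genes in 7 lists, each point a gene, green where edgeR's adjusted p was under 0.05 and grey where not, with a bar at each list's median. Most green points lie below 0 in the licensing, firing and replisome lists, and the scale, −0.57 to 0.48, is far from the −2.76 of Dbf4.

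The genes most like each component over the 8 libraries were found by the root mean square difference of centred log2 CPM, a measure in which small values mean alike. The 5 most like Dbf4 were Fzd1 (0.0373), Crot (0.0470), Steap1 (0.0492), Abcb1a (0.0694) and Cdk14 (0.0765), all on chromosome 5. Those most like Cdc7 were Zfp867 (0.0474), Med26 (0.0678), Mrpl54 (0.0706), Slx1b (0.0746) and Dedd2 (0.0754), which lie on other chromosomes. Those most like the summed Mcm2 to Mcm7 were Uap1 (0.0137), Cxxc1 (0.0180), Ccna2 (0.0186), Uqcrc1 (0.0192) and Flnc (0.0196), of which Ccna2 is in the replication lists. By Pearson correlation instead, 1, 2 and 0 of the 5 genes were the same, and with 8 libraries in 2 groups either measure mostly reflects the group difference.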

How the data were processed

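RNA of 8 KPCY cultures, 4 per line, was sequenced after poly(A) selection as paired ends of 59 bases, per the labels' protocols. The authors deposited raw read counts per gene symbol. The build was mm10 and the tools R 4.2.1, DESeq2 1.36.0, STAR, Bowtie and bcl2fastq 2.20, in no stated role, per the submitters' processing notes. Neither counter, annotation nor strandedness is given in the sources used here, so antisense reads cannot be told apart. Of 24421 rows, 4 shared 2 symbols.

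Genes were tested with edgeR 4.0.16 in R 4.3.3, checked on simulated data: filterByExpr (minimum count 10, total 15), TMM, glmQLFit and glmQLFTest on group. A call was a Benjamini-Hochberg adjusted p under 0.05 at any fold. Levels are TMM-scaled CPM, with depths of 19165513 to 23542275 counts. Intervals and limits cover counting error only. Coordinates are 1-based GRCm38 (GENCODE M21), and 23309 symbols matched it directly.

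The members and lists were chosen with earlier results of these data known, so members get no p-value. Named genes were all members; from each list up to 3 called genes per direction by adjusted p with at least 5 CPM and up to 2 uncalled genes with the highest CPM; the 5 tested neighbours on each side of Dbf4 and the nearest of other members; and the 5 genes most like each component. Alternatives were other normalizations (DESeq2's size factors, upper quartile), filters (none, 1 CPM in 4 libraries), tests (DESeq2 1.42.0, limma-voom in limma 3.58.1), an adjusted p under 0.01, the replicate number as a block, leaving out each library, and other windows, lengths and ratios.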

Additional observations from a re-analysis of the deposited data

How the results depend on the processing

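Over 15 other fits and the threshold of 0.01, the count of members called lower was 8 in each leave-one-out fit and 7 or 8 otherwise (7 at the threshold of 0.01, without Mcm7). The count called higher was 0 to 1 leaving out each library, and 1 (Cdc7) with upper-quartile scaling, no low-count filter and the replicate block. Leaving out 1 library, 2575 to 3002 genes were lower and 2532 to 3002 higher. Replicate numbers did not pair the libraries, as same-numbered deviations correlated at −0.035 to 0.020 and 0 scrambled and 1 knockdown library correlated best with its own number. With the replicate block, 2771 genes were lower and 2762 higher, against 2841 and 2804. With the median of the 6 subunits, the log2 difference of Dbf4 over the helicase was −2.49. By longest annotated transcript Dbf4 stood at 399 and 58.8 CPM per kilobase (scrambled and knockdown), by longest coding transcript at 417 and 61.4. With 10 neighbours on each side the median around Mcm6 was 0.044 in place of −0.01, and the cause was not tested. Around Dbf4 that wider window held 20 genes, all called lower, where 24.1% of all tested genes were. Steap4 and Abcb4 are among these genes and add no support, and the depth of the added genes was not examined. The log2 fold changes of the 20 genes ran from −3.64 to −1.46, with a median of −2.69. At the threshold of 0.01, S-phase kinase and checkpoint genes lower were 5 in place of 8, neighbours of Mcm4 lower 3 in place of 5, of Mcm5 higher 3 in place of 5 and of Mcm6 lower 1 in place of 2. Mcm5's neighbours also gave 3 without scrambled replicate 3, scrambled replicate 4 or knockdown replicate 2, and Mcm6's gave 1 without knockdown replicate 2 or 3. Upper-quartile scaling moved the median of all genes by 0.019 and called 2478 lower and 3188 higher. Of the 10 neighbours of Dbf4, 9 were called with 1 CPM in 4 libraries. Depth limits Cdc7 most, at 336 to 497 counts.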
